A study of Mus musculus with 56 samples.

Results

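The TET dioxygenases, the DNA methyltransferases and the enzymes that work with them were followed as RNA in sorted bone marrow progenitors. The 10 genes were Tet1, Tet2 and Tet3, the glycosylase gene Tdg, the isocitrate dehydrogenase genes Idh1 and Idh2, the methyltransferase genes Dnmt1, Dnmt3a and Dnmt3b, and Uhrf1. They were chosen by name, through their Entrez IDs, and all 10 were among the 24424 genes of the deposited expression table. Of the 12133 genes whose mean over the libraries was at least 4 on the log2 scale, 9 were among them, and Tdg lay under that limit.

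The series profiled 5-hydroxymethylcytosine in small numbers of mouse cells and added RNA-seq of blood progenitors, and its 41 hydroxymethylcytosine and input samples are not analysed here. The mutant mice are labelled Tet2-/-Flt3ITD (T2F3 below): they lack Tet2 and carry an internal tandem duplication in the growth factor receptor gene Flt3, and no group carries only 1 of these changes, so their effects cannot be told apart. The 4 groups were T2F3 multipotent progenitors (MPP, 3 libraries), WT MPP (4), T2F3 granulocyte-macrophage progenitors (GMP, 3) and WT GMP (5), all from C57BL/6 bone marrow. MPP were sorted as lin- Sca+ cKit+ CD48+ CD150- cells and GMP as lin- Sca- cKit+ CD34+ CD16/32+ cells. The ages and any treatment of the mice, and whether each library came from a separate animal, are not given in the sources used here, so the spread behind each p-value may be technical. Read depth is unknown, because the table holds regularized log2 values and no counts.

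TET enzymes oxidize 5-methylcytosine to 5-hydroxymethylcytosine and onward to formyl- and carboxylcytosine, using iron, oxygen and 2-oxoglutarate. TDG cuts out these last forms, and base excision repair then restores an unmodified cytosine. DNMT3A and DNMT3B place new methyl groups on CpG sites, while UHRF1 recognizes hemimethylated DNA after replication and brings DNMT1 to copy the mark. IDH1, in the cytosol, and IDH2, in mitochondria, make 2-oxoglutarate, and mutant forms of both make a metabolite that inhibits TET enzymes. In blood, TET2, DNMT3A, IDH1, IDH2 and FLT3 are all recurrently mutated in human myeloid leukaemia.

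Reference promoter windows of 300 bases were found for all 10 genes, 16 windows in all (RefSeq, GRCm38.p6, 250 bases before to 50 bases from the annotated start on). The CpG sites on which these enzymes act are in capitals in the 4 windows below. Tet1 and Dnmt3b are shown as the genes with the largest falls between the populations, and Dnmt1 and Uhrf1 as partners whose values moved closely together. They are reference sequences, and no methylation of them was measured here.
Tet1, chr10:62887275-62887574, minus strand: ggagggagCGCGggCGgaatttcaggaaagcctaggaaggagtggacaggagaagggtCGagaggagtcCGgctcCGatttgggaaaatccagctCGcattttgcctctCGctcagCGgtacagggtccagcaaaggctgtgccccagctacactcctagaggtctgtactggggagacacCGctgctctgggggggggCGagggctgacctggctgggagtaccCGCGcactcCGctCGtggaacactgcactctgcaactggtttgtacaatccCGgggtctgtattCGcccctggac
Dnmt3b, chr2:153649199-153649498, plus strand: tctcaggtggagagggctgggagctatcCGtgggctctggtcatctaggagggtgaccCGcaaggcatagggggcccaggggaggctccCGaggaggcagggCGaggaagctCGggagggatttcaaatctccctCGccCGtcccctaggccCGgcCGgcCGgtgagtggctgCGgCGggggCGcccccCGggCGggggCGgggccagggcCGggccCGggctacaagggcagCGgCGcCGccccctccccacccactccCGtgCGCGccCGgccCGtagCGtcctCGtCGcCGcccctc
Dnmt1, window 3, chr9:20952574-20952873, minus strand: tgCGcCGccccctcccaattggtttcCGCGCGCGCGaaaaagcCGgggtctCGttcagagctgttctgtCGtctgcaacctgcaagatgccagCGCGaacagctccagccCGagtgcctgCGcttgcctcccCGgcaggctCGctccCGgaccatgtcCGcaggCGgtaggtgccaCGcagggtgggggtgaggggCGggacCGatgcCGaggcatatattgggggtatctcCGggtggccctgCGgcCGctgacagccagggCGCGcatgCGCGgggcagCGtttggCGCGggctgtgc
Uhrf1, window 2, chr17:56304063-56304362, plus strand: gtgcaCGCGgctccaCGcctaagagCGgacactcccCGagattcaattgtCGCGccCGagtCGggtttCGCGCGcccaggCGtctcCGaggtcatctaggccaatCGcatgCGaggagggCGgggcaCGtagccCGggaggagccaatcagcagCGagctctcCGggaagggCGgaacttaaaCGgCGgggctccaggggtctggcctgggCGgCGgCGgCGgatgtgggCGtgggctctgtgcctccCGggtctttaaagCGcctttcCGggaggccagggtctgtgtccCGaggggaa

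These windows held 17 CpG sites for Tet1, 30 for Dnmt3b, 33 for Dnmt1 and 33 for Uhrf1, against a median of 20 over the 12302 windows of tested genes. The Tet2 window held 57 CpG sites, the most of the 16, and the windows of Tet3, Tdg and Idh2 held 22, 26 and 20. Dnmt1 has 3 annotated starts whose windows held 2, 12 and 33 CpG sites, and Uhrf1 has 2 with 12 and 33. Dnmt3a has 3 windows with 46, 47 and 18 sites, and both Idh1 windows held 23. The letters TTTNNCGC, a form of the element bound by E2F factors of the cell cycle, were searched on both strands. They occurred in the Dnmt1 window shown, at -219, -217 and 33 from the start, the first pair overlapping, and in both Uhrf1 windows, at -56 in the first and -185 in the second. No window of the other genes held these letters, which occur in 8.29% of the windows of tested genes. Searched likewise were GGGCGG (GC box), CCAAT, TTCNNNGAA (STAT) and CCGGAAGT (ETS). They occur in 61.3%, 38.2%, 6.94% and 8.19% of the windows of tested genes. GC box letters occurred for every gene but Tdg, and CCAAT for Tet3, Tdg, Idh1, Idh2, Dnmt1 and Uhrf1. STAT letters occurred for Tdg only, and ETS letters for none. A match is a stretch of letters and not a measured binding site.

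**Figure D1:**
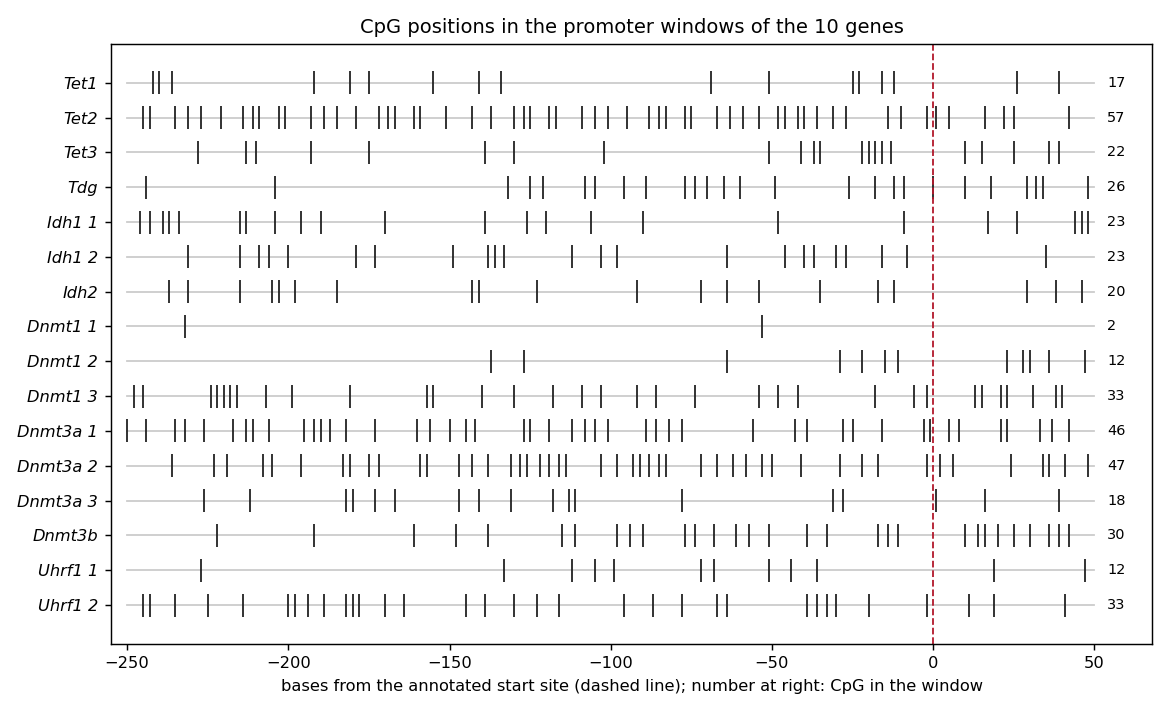
Positions of CpG sites (ticks) from 250 bases before to 50 bases after each annotated start (dashed line), 1 row per promoter window of the 10 genes, with the number of sites at the right. Tet2 has the densest window with 57 sites, and the first Dnmt1 window has the fewest with 2.

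Most markers of the populations went with their gates in the RNA. Of 8 stem and multipotent progenitor markers, 7 were lower in GMP than in MPP in each genotype, 6 of them in both. Of 10 GMP markers, 8 were higher in GMP in both genotypes. The other 2 GMP markers, Cd34 and Kit, belong to the GMP gate but went the other way. Cd34 was lower in GMP in both genotypes, and Kit in WT only (-0.09, adjusted p = 0.77 in T2F3). Among the 8 progenitor markers, Cd48 was lower in GMP in T2F3 only (0.15, adjusted p = 0.449 in WT). Some gate markers also differed by genotype, where 40.3% of all tested genes passed in MPP and 15.3% in GMP. Of the 8 stem and multipotent progenitor markers, 2 were higher and 4 lower in T2F3 MPP, and 3 were higher and 0 lower in T2F3 GMP. Their summed level was 13.83 to 13.98 in T2F3 MPP against 14.08 to 14.21 in WT MPP (log2). Of the 10 GMP markers, 2 were higher and 1 lower in T2F3 MPP, and 0 passed in GMP by limma. Markers of other cells differed by genotype too. All 6 measured erythroid markers were lower in T2F3 in both populations, with a summed level of 7.28 to 7.50 in T2F3 MPP against 9.86 to 10.48 in WT MPP and of 7.25 to 7.41 in T2F3 GMP against 8.51 to 9.65 in WT GMP (log2), and Hbb-b1 was listed at 0 throughout. Of 10 dendritic and mature monocyte markers, 9 were higher in T2F3 in both populations, with a summed level of 15.15 to 16.04 in T2F3 MPP against 12.50 to 13.39 in WT MPP and of 14.87 to 15.06 in T2F3 GMP against 12.43 to 12.75 in WT GMP. Of 6 tested lymphoid markers, 4 were lower in T2F3 MPP and 3 in T2F3 GMP. Of 8 late neutrophil markers, 0 passed in either population by limma, with 0 at an unadjusted p under 0.05 in MPP and 5 in GMP, and their summed level was 13.61 to 14.72 in T2F3 MPP against 13.21 to 14.02 in WT MPP and 16.50 to 18.61 in T2F3 GMP against 15.46 to 17.38 in WT GMP. The mean log2 value of 24 ribosomal protein genes was 13.49 to 13.53 in T2F3 MPP against 12.72 to 12.81 in WT MPP. In GMP it ran from 13.11 to 14.07 in T2F3 and from 12.94 to 14.11 in WT, with T2F3 GMP 2 and WT GMP 1 highest. The part of these marker and ribosomal shifts in the results below was not tested beyond the values given. The libraries are bulk samples, so fewer cells of a type and less RNA per cell cannot be told apart.

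**Figure D2:**
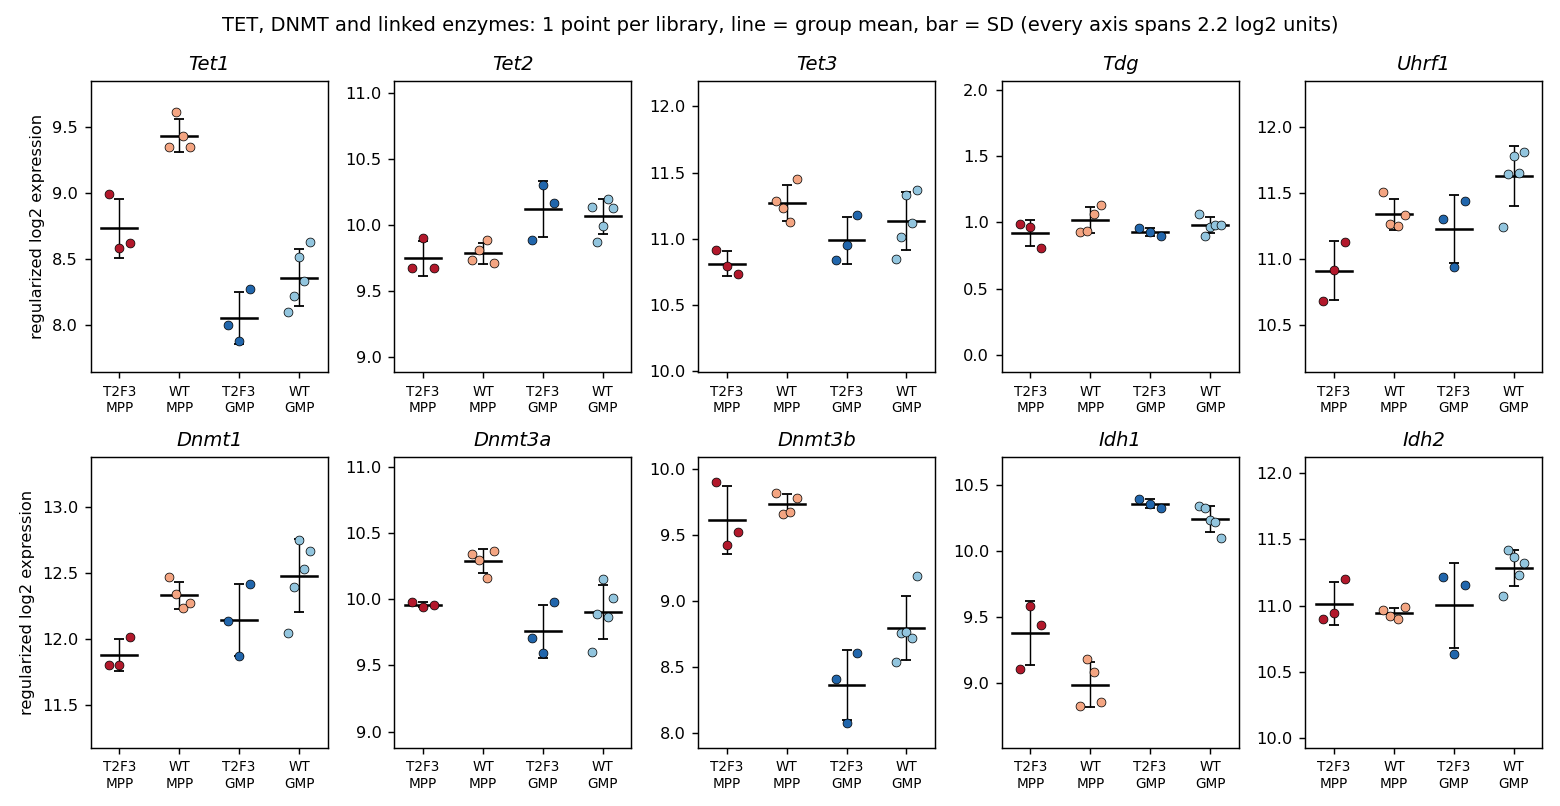
Regularized log2 value of each of the 10 genes in each library (points) with the group mean (line) and SD (bar), T2F3 left of WT in MPP and in GMP. Tet1 reads highest in WT MPP, Dnmt3b falls in GMP and Idh1 climbs there in both genotypes, and Tdg stays near 1.

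The genotypes were compared first, in MPP. Tet1, Tet3, Dnmt1, Dnmt3a and Uhrf1 were lower in T2F3 MPP and Idh1 was higher, while Tet2, Idh2 and Dnmt3b did not pass the test. Of the 9 genes tested, 6 passed, 1 higher and 5 lower, where 40.3% of all tested genes passed, 20.7% higher and 19.6% lower (limma with Benjamini-Hochberg adjustment over all tested genes, threshold 0.05). With the libraries centred on their median, 40.2% of the genes called were higher, against 51.3% as deposited. The median difference over the 9 genes was -0.33 (log2, T2F3 minus WT), against -0.02 over all tested genes. The T2F3 and WT libraries did not overlap in 5 of the 9 genes, and in 54.1% of all tested genes.

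The targeted gene, Tet2, is the first check. It read 9.67, 9.90 and 9.67 in T2F3 MPP 1, 2 and 3, against 9.73, 9.81, 9.89 and 9.71 in WT MPP 1, 3, 4 and 5. In GMP it read 9.88, 10.30 and 10.17 in T2F3, against 10.13, 9.87, 9.995, 10.19 and 10.13 in WT. The genotypes overlapped in both populations, and the intervals of the difference ran from -0.27 to 0.19 in MPP and from -0.16 to 0.27 in GMP (limma 95%). Since a gene-level value does not show which exons were read, it is no check of a partial deletion.

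Tet1, an oxidase with a CXXC DNA-binding domain, had the largest genotype difference of the 9 genes. It read 8.99, 8.59 and 8.62 in T2F3 MPP, against 9.35, 9.61, 9.43 and 9.34 in WT MPP, and every T2F3 library lay below every WT library. It was 1.63-fold lower (-0.70 ± 0.14 on the log2 scale, SE, limma adjusted p = 0.00109), and the difference passed the threshold in all 25 alternatives tried, from -0.83 to -0.42. In GMP it read 8.00, 7.88 and 8.27 in T2F3, against 8.09, 8.22, 8.51, 8.33 and 8.63 in WT. These groups overlapped, and the GMP difference of -0.31 ± 0.13 did not pass (adjusted p = 0.123). It passed without WT GMP 1 (-0.37, adjusted p = 0.0304). The difference between the genotype effects in GMP and MPP was 0.39 ± 0.19 and did not pass (adjusted p = 0.265).

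Tet3, the oxidase best known from the zygote, read 10.91, 10.79 and 10.73 in T2F3 MPP, against 11.28, 11.23, 11.13 and 11.45 in WT MPP, again without overlap. It was 1.38-fold lower in T2F3 MPP (-0.46 ± 0.13, adjusted p = 0.0115). The call was lost without T2F3 MPP 3 (-0.42, adjusted p = 0.053). In GMP it read 10.84, 10.95 and 11.18 in T2F3, against 10.84, 11.02, 11.33, 11.12 and 11.37 in WT, with overlap and a difference of -0.15 ± 0.12 (adjusted p = 0.453).

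Tdg was listed at 0.81 to 0.99 in T2F3 MPP, 0.93 to 1.13 in WT MPP, 0.89 to 0.96 in T2F3 GMP and 0.90 to 1.06 in WT GMP. Its mean lay under the limit for a test, and the reference annotation holds 3 Tdg pseudogenes, with which reads could be shared, so the low value is uncertain. Fitted with no limit on low values, its adjusted p was 0.325 for the genotypes in MPP and 0.737 in GMP.

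Dnmt3a, the de novo methyltransferase of blood stem cells, read 9.98, 9.94 and 9.96 in T2F3 MPP, against 10.34, 10.29, 10.16 and 10.36 in WT MPP. All 3 T2F3 libraries lay below all 4 WT libraries, and the gene was 1.26-fold lower (-0.33 ± 0.12, adjusted p = 0.0349). This call was lost without T2F3 MPP 1, 2 or 3 (-0.34, -0.32 and -0.33, adjusted p = 0.0608, 0.0973 and 0.089). It was also lost without WT MPP 1, 3 or 5 (-0.31, -0.33 and -0.31, adjusted p = 0.0743, 0.0651 and 0.0777). In GMP the gene read 9.70, 9.59 and 9.98 in T2F3, against 9.60, 9.89, 10.16, 9.87 and 10.01 in WT, which overlapped (-0.15 ± 0.11, adjusted p = 0.404).

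Dnmt3b, its paralog, read 9.90, 9.42 and 9.52 in T2F3 MPP, against 9.81, 9.66, 9.67 and 9.78 in WT MPP. T2F3 MPP 1 lay above every WT library and the other two below, and the difference was -0.12 ± 0.15 (adjusted p = 0.538). In GMP it read 8.41, 8.08 and 8.60 in T2F3, against 8.54, 8.76, 8.76, 8.72 and 9.19 in WT. Those groups overlapped only through T2F3 GMP 3, and the difference of -0.43 ± 0.14 did not pass (adjusted p = 0.0521). It passed without T2F3 MPP 1, T2F3 GMP 3 or WT GMP 1 (-0.43, -0.55 and -0.49, adjusted p = 0.0376, 0.0301 and 0.0139).

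Dnmt1, the maintenance methyltransferase, read 11.81, 11.81 and 12.02 in T2F3 MPP, against 12.47, 12.34, 12.24 and 12.28 in WT MPP. Uhrf1, its recruiter, read 10.68, 10.91 and 11.13 in T2F3 MPP, against 11.51, 11.26, 11.25 and 11.34 in WT MPP. In both genes all T2F3 libraries lay below all WT libraries, with a difference of -0.45 ± 0.16 for Dnmt1 (1.37-fold lower, adjusted p = 0.0327) and -0.43 ± 0.15 for Uhrf1 (1.35-fold lower, adjusted p = 0.0326). The Dnmt1 call was lost without T2F3 MPP 1 or 2 (-0.42 each, adjusted p = 0.0835 and 0.106) or without WT MPP 1, 3 or 5 (-0.41, -0.45 and -0.47, adjusted p = 0.0808, 0.0633 and 0.0517). The Uhrf1 call was lost without T2F3 MPP 1 or 2 (-0.32 and -0.43, adjusted p = 0.135 and 0.0838) or without WT MPP 1 or 5 (-0.37 and -0.43, adjusted p = 0.0856 and 0.0587).

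In GMP, Dnmt1 read 12.14, 11.87 and 12.42 in T2F3, against 12.05, 12.39, 12.75, 12.53 and 12.67 in WT. Uhrf1 read 11.31, 10.94 and 11.43 in T2F3 GMP, against 11.24, 11.64, 11.78, 11.65 and 11.81 in WT GMP. In each gene WT GMP 1 was the lowest WT library and T2F3 GMP 2 the lowest T2F3 library, the same 2 libraries in which ribosomal protein genes read highest. The differences were -0.34 ± 0.15 for Dnmt1 (adjusted p = 0.146) and -0.40 ± 0.14 for Uhrf1 (adjusted p = 0.0696). Without WT GMP 1 both passed, at -0.44 (adjusted p = 0.015) and -0.50 (adjusted p = 0.00733), and Uhrf1 also passed without T2F3 GMP 3 (-0.50, adjusted p = 0.0478).

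Idh1, the cytosolic producer of 2-oxoglutarate, went the other way from the enzymes above in MPP. It read 9.11, 9.58 and 9.44 in T2F3 MPP, against 8.83, 9.18, 9.08 and 8.86 in WT MPP. It was 1.31-fold higher in T2F3 MPP (0.39 ± 0.11, adjusted p = 0.0138), although T2F3 MPP 1 lay inside the WT range. The call was lost without T2F3 MPP 2 or 3 (0.29 and 0.36, adjusted p = 0.0914 and 0.0587). In GMP it read 10.39, 10.35 and 10.33 in T2F3, against 10.34, 10.32, 10.23, 10.22 and 10.10 in WT, and the groups overlapped (0.12 ± 0.11, adjusted p = 0.505).

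Idh2, the mitochondrial enzyme, read 10.90, 10.95 and 11.20 in T2F3 MPP, against 10.97, 10.92, 10.90 and 10.99 in WT MPP, with overlap (0.07 ± 0.13, adjusted p = 0.673). In GMP it read 11.22, 10.63 and 11.16 in T2F3, against 11.07, 11.42, 11.37, 11.23 and 11.32 in WT. T2F3 GMP 2 was the lowest of the 8 GMP libraries, and the difference of -0.28 ± 0.12 did not pass (adjusted p = 0.144). It passed without WT GMP 1 (-0.33, adjusted p = 0.0462).

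Taking GMP as a whole, 0 of the 9 genes passed the genotype test by limma, and 5 had an unadjusted p under 0.05 (Tet1, Idh2, Dnmt1, Dnmt3b and Uhrf1, all lower in T2F3). At that unadjusted limit stood 30% of all tested genes, 15.7% lower in T2F3 and 14.2% higher. Of all tested genes, 15.3% passed in GMP, 9.25% higher and 6.04% lower. The groups overlapped in all 9 genes and were apart in 17% of all tested genes. With array weights 6 of the 9 passed, all lower in T2F3. They were Tet1 (-0.39, adjusted p = 0.00857), Tet3 (-0.31, 0.0245) and Dnmt1 (-0.43, 0.00581). The others were Dnmt3a (-0.24, 0.0476), Dnmt3b (-0.42, 0.00933) and Uhrf1 (-0.41, 0.00502). Those weights called 4103 of all tested genes, against 1855 without them. Uhrf1 also passed with WT GMP 1 and T2F3 GMP 2 left out (-0.35, adjusted p = 0.0367). The test of whether the genotype effect differed between GMP and MPP passed for 0 of the 9 genes, with 0 at an unadjusted p under 0.05 (19.2% of all tested genes), and for 2.26% of all tested genes, 1.38% higher and 0.882% lower. Of the genes called in that test 60.9% were higher as deposited, 74.5% with centred libraries, 48.2% with array weights, 44.7% with the ribosomal protein covariate described below and 33.1% with WT GMP 1 and T2F3 GMP 2 left out. The passing of 6 genes in MPP and 0 in GMP is therefore not shown to be a difference between the populations.

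**Figure D3:**
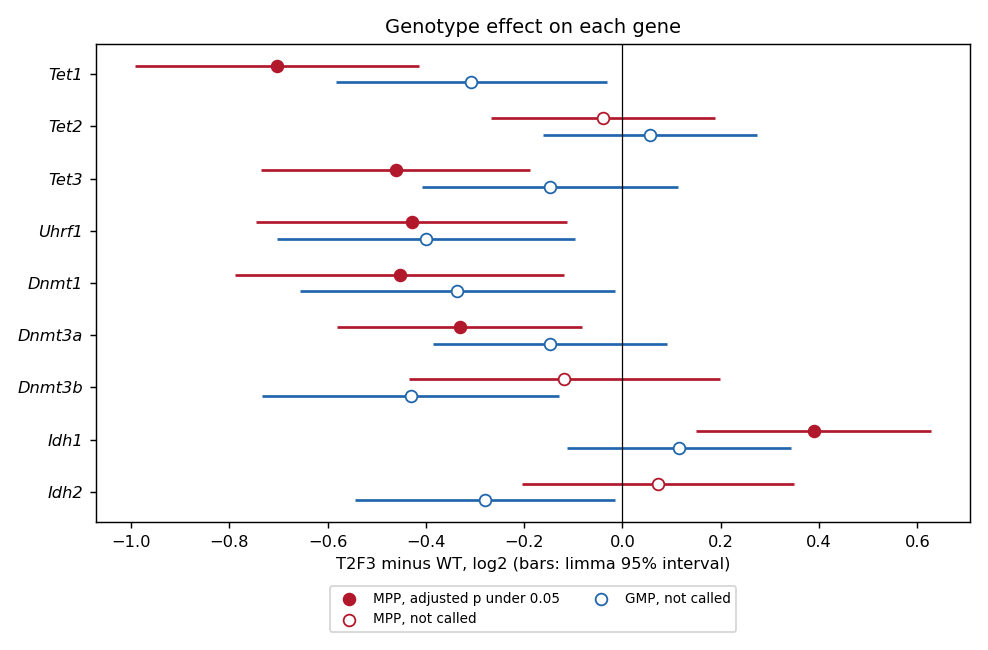
Genotype difference (log2, T2F3 minus WT) of the 9 tested genes in MPP and GMP, with limma 95% intervals, where filled points passed at an adjusted p under 0.05. In MPP 6 genes passed, from Tet1 at -0.70 to Idh1 at 0.39, and in GMP 0 passed.

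The ribosomal protein level separated T2F3 from WT MPP without overlap, so a fit with that level as a covariate was added after the data were seen. In it Tet1 was still lower in T2F3 MPP (-0.42, adjusted p = 0.0206). The other differences were -0.21 for Tet3 (adjusted p = 0.183), 0.31 for Idh1 (0.0826), -0.05 for Dnmt1 (0.726), -0.05 for Dnmt3a (0.706) and -0.08 for Uhrf1 (0.64), none past the threshold. In GMP the covariate brought Dnmt3b (-0.32, adjusted p = 0.0485) and Uhrf1 (-0.27, adjusted p = 0.0391) past it. Because the covariate and the genotype move together in MPP, their parts cannot be told apart there.

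The second question was how the enzymes differ between the 2 populations. From MPP to GMP, Tet1 and Dnmt3b fell and Idh1 rose in both genotypes, each without overlap between the populations, and Tet2 rose in both. Of the 9 genes, 6 passed in WT (3 higher, 3 lower), where 48.6% of all tested genes passed, 25.4% higher and 23.2% lower, and 4 passed in T2F3 (2 higher, 2 lower), where 22.2% passed, 10.5% higher and 11.7% lower. With centred libraries 42.2% of the genes called in the WT step were higher, against 52.2% as deposited. The populations were apart in 5 of the 9 genes in WT, and in 43% of all tested genes. They were apart in 3 of the 9 in T2F3, and in 33.5% of all tested genes.

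Idh1 had the largest WT step, 2.39-fold higher in GMP (1.25 ± 0.10, adjusted p = 4.5e-08), and in T2F3 it was 1.97-fold higher in GMP (0.98 ± 0.12, adjusted p = 1.43e-05). Tet1 was 2.11-fold lower in GMP in WT (-1.07 ± 0.12, adjusted p = 1.88e-06) and 1.60-fold lower in T2F3 (-0.68 ± 0.15, adjusted p = 0.00242). Dnmt3b was 2.38-fold lower in GMP in T2F3 (-1.25 ± 0.16, adjusted p = 2.25e-05) and 1.92-fold lower in WT (-0.94 ± 0.13, adjusted p = 2.19e-05). These 6 steps passed in all 25 alternatives each.

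Tet2, with a smaller step, was 1.29-fold higher in GMP in T2F3 (0.37 ± 0.12, adjusted p = 0.0274) and 1.21-fold higher in WT (0.28 ± 0.09, adjusted p = 0.0233). Its WT call was lost without WT MPP 1, WT MPP 5 or WT GMP 4 (0.26, 0.25 and 0.24, adjusted p = 0.062, 0.0645 and 0.0581), with centred or quantile-normalized libraries (0.21 and 0.13, adjusted p = 0.0744 and 0.274) and with the ribosomal protein covariate (0.23, adjusted p = 0.0545). Its T2F3 call was lost without T2F3 MPP 1, T2F3 MPP 3, T2F3 GMP 2 or T2F3 GMP 3 (0.33, 0.33, 0.28 and 0.35, adjusted p = 0.094, 0.101, 0.111 and 0.0784). It was also lost with quantile normalization (0.28, adjusted p = 0.093), array weights (0.19, adjusted p = 0.152), only the groups compared (0.37, adjusted p = 0.0993) and both WT GMP 1 and T2F3 GMP 2 left out (0.28, adjusted p = 0.0639).

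Dnmt3a fell in GMP in WT (-0.39 ± 0.10, adjusted p = 0.00558), a call kept in all 25 alternatives, from -0.54 to -0.20. The smallest difference came with the ribosomal protein covariate (-0.20, adjusted p = 0.0238). In T2F3 Dnmt3a read -0.20 ± 0.13 without passing (adjusted p = 0.296). Idh2 rose in GMP in WT (0.34 ± 0.11, adjusted p = 0.0224) and in T2F3 differed by -0.01 ± 0.14 (adjusted p = 0.966). The Idh2 call in WT was lost without WT MPP 3, WT MPP 4 or WT GMP 2 (0.33, 0.32 and 0.30, adjusted p = 0.0525, 0.0564 and 0.0556), and with centred or quantile-normalized libraries (0.27 and 0.18, adjusted p = 0.0666 and 0.167). Tet3 did not pass in T2F3 (0.18, adjusted p = 0.426) or WT (-0.14, adjusted p = 0.33), although with quantile normalization it passed in WT (-0.33, adjusted p = 0.0168).

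Dnmt1 and Uhrf1 did not pass between the populations in the fit of all libraries, and several alternatives brought them past the threshold. The step was 0.27 ± 0.17 in T2F3 (adjusted p = 0.311) and 0.15 ± 0.14 in WT (adjusted p = 0.398) for Dnmt1, and 0.32 ± 0.16 in T2F3 (adjusted p = 0.188) and 0.29 ± 0.13 in WT (adjusted p = 0.0811) for Uhrf1. Without WT GMP 1, Uhrf1 passed in WT (0.38, adjusted p = 0.0102). Without both WT GMP 1 and T2F3 GMP 2, Dnmt1 passed (0.40 in T2F3 and 0.25 in WT, adjusted p = 0.0158 and 0.0251) and so did Uhrf1 (0.46 and 0.38, adjusted p = 0.00587 and 0.00163). With the ribosomal protein covariate both passed in both genotypes, Dnmt1 at 0.28 in T2F3 and 0.42 in WT (adjusted p = 0.0109 and 2.19e-04) and Uhrf1 at 0.33 and 0.52 (adjusted p = 0.0125 and 1.48e-04). With array weights Uhrf1 passed in both (0.31 in T2F3 and 0.39 in WT, adjusted p = 0.0254 and 5.94e-04) and Dnmt1 in WT (0.27, adjusted p = 0.0131). Of 24 S phase and division genes, 8 rose in GMP in T2F3 and 14 in WT, and 0 fell in either. Of all tested genes, 10.5% rose and 11.7% fell in T2F3, and 25.4% rose and 23.2% fell in WT. The median of the 24 genes was 0.30 in T2F3 and 0.36 in WT, against 0.01 and 0.03 over all tested genes.

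**Figure D4:**
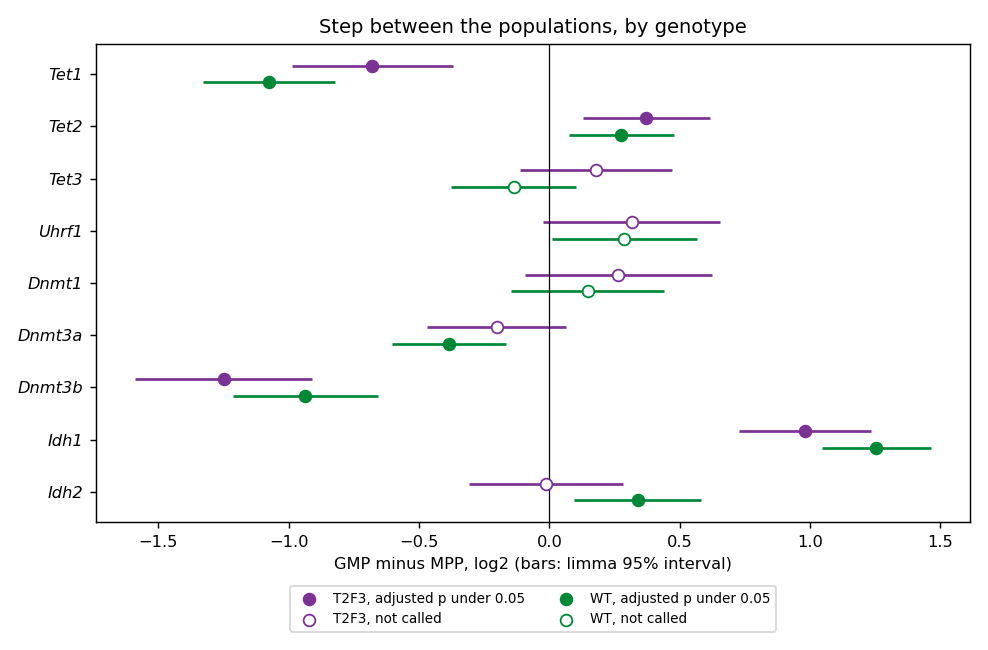
Difference between the populations (log2, GMP minus MPP) of the 9 tested genes in T2F3 and in WT, with limma 95% intervals, where filled points passed at an adjusted p under 0.05. Tet1 and Dnmt3b lie left of 0 and Idh1 and Tet2 right of it in both genotypes.

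Ordered by group mean, Tet1 stood highest in WT MPP (9.43 ± 0.12, SD, n = 4), then in T2F3 MPP (8.73 ± 0.22, n = 3), WT GMP (8.36 ± 0.22, n = 5) and T2F3 GMP (8.05 ± 0.20, n = 3). Only the first pair of neighbours did not overlap. Dnmt3b had the same order, 9.73 ± 0.08, 9.61 ± 0.25, 8.79 ± 0.24 and 8.36 ± 0.27, with a gap only between T2F3 MPP and WT GMP. Dnmt3a also followed it, at 10.29 ± 0.09, 9.96 ± 0.02, 9.90 ± 0.21 and 9.76 ± 0.20, with a gap between the first pair.

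Idh1 ran the other way, highest in T2F3 GMP (10.36 ± 0.03, SD, n = 3) and WT GMP (10.24 ± 0.10, n = 5) and lower in T2F3 MPP (9.38 ± 0.24, n = 3) and WT MPP (8.99 ± 0.17, n = 4), with a gap between the populations. Dnmt1 (12.48 ± 0.28, 12.33 ± 0.10, 12.14 ± 0.27 and 11.88 ± 0.12) and Uhrf1 (11.63 ± 0.23, 11.34 ± 0.12, 11.23 ± 0.26 and 10.91 ± 0.22) shared the order WT GMP, WT MPP, T2F3 GMP and T2F3 MPP, and each neighbour overlapped the next. Neighbours also overlapped throughout for Tet2, Tet3 and Idh2. Levels of different genes are not compared, because the table has no length scale.

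Differences within a library between related genes do not move with a factor that scales the whole library. Uhrf1 minus Dnmt1 was -0.97 ± 0.13 in T2F3 MPP (SD, n = 3) against -0.99 ± 0.06 in WT MPP (n = 4), and -0.92 ± 0.07 in T2F3 GMP (n = 3) against -0.85 ± 0.08 in WT GMP (n = 5). Tet1 minus Tet2 was -1.02 ± 0.32 in T2F3 MPP against -0.35 ± 0.11 in WT MPP, without overlap (two-sided exact permutation p = 0.0286, adjusted p = 0.171). Tet3 minus Tet1 was 2.94 ± 0.12 in T2F3 GMP against 2.78 ± 0.03 in WT GMP, also without overlap (exact permutation p = 0.0179, adjusted p = 0.171). Both p-values are the smallest the numbers of libraries allow. Over 6 pairs in each of the 2 populations, 12 tests in all, 0 passed after adjustment and 2 had an unadjusted p under 0.05. With so few libraries, a single pair at its smallest possible p cannot pass an adjustment over 12 tests. The 0 therefore does not show that the genotypes are alike in these pairs.

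The genes whose pattern over the 15 libraries was most like each enzyme were found by the root mean square difference of centred values, over 11343 genes. Nearest to Uhrf1 were Mcm2 (0.057), Chaf1a (0.069) and Mapre2 (0.081), and Dnmt1 ranked 11 (0.095) where Uhrf1 itself varied by 0.314. Nearest to Dnmt1 were Hcfc1 (0.061), Tm9sf4 (0.062) and Tacc1 (0.067), with Uhrf1 at rank 34. Dnmt3b had Ptger3 (0.140), Slc39a14 (0.142) and Camk2a (0.147), and Tet1 ranked 63 (0.246).

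The nearest genes of Tet1 were Peak1 (0.107), Gprasp1 (0.126) and Nynrin (0.132), those of Tet2 Atg16l2 (0.083), Arhgap4 (0.104) and Lcorl (0.106), and those of Tet3 Scaf4 (0.059), Zfp592 (0.063) and Proser1 (0.065). Dnmt3a had Abl1 (0.066), Mprip (0.068) and Rnf44 (0.068). For Idh1 they included Tmed3 (0.122) and Arhgdib (0.156), and for Idh2 Atp5a1 (0.052), Prpf31 (0.068) and Ndufa10 (0.068). The genes themselves varied by 0.540 (Tet1), 0.198 (Tet2), 0.221 (Tet3), 0.236 (Dnmt3a) and 0.577 (Dnmt3b). Dnmt1, Idh1 and Idh2 varied by 0.289, 0.595 and 0.208. Each distance stands against the gene's own spread, so distances of different enzymes are not compared. Likeness here is a description over libraries that share groups.

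Genes that work beside these enzymes were counted by list. Of 15 tested base excision repair genes, 2 rose and 3 fell in T2F3 MPP (median -0.17) and 0 rose and 2 fell in T2F3 GMP (median -0.15). Gadd45b, a stress gene linked to active demethylation, rose in T2F3 MPP (0.58 ± 0.12, adjusted p = 0.00194), while the glycosylases Neil1 (-0.32 ± 0.10, adjusted p = 0.0234) and Neil3 (-0.33 ± 0.11, adjusted p = 0.0243) fell. In T2F3 GMP the ligase Lig3 (-0.37 ± 0.11, adjusted p = 0.03) and the abasic site endonuclease Apex1 (-0.35 ± 0.11, adjusted p = 0.0468) fell, and Neil3 read 0.26 ± 0.10 (adjusted p = 0.103). The genotype effect itself differed between GMP and MPP for both Gadd45b (-0.84 ± 0.17, adjusted p = 0.0167) and Neil3 (0.59 ± 0.15, adjusted p = 0.0496).

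Of 10 tested TET partners and regulators, 1 rose and 3 fell in T2F3 MPP (median -0.17), and 0 rose and 2 fell in T2F3 GMP (median -0.19). Cxxc5, a CXXC-domain protein, fell in both, with -0.66 ± 0.11 in MPP (adjusted p = 4.14e-04) and -0.44 ± 0.11 in GMP (adjusted p = 0.0115). In MPP, Hcfc1, a chromatin cofactor (-0.54 ± 0.15, adjusted p = 0.0117), and Lin28a, an RNA-binding protein (-0.53 ± 0.17, adjusted p = 0.026), also fell. In GMP, Cul4a, a ubiquitin ligase scaffold, fell (-0.24 ± 0.07, adjusted p = 0.0286), and Hcfc1 read -0.31 ± 0.14 (adjusted p = 0.167).

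Of 15 tested partners of the methyltransferases, 0 rose and 2 fell in T2F3 MPP (median -0.17). These were Setdb1, a histone H3 lysine methyltransferase (-0.29 ± 0.08, adjusted p = 0.00797), and Atrx, a chromatin remodeller (-0.36 ± 0.12, adjusted p = 0.0284), and Usp7, a deubiquitinase, read -0.30 ± 0.12 (adjusted p = 0.0641). In GMP 0 of the 15 passed by limma, with 5 at an unadjusted p under 0.05 and a median of -0.21. Cdca7 (-0.29 ± 0.10, adjusted p = 0.0672), Setdb1 (-0.21 ± 0.07, adjusted p = 0.0672) and Usp7 (-0.29 ± 0.12, adjusted p = 0.112) had the smallest p.

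Of 9 genes of methyl-CpG readers and proteins of the same families, 1 rose and 3 fell in T2F3 MPP (median -0.19). They were listed by family, and whether each protein binds methylated CpG was not tested. Mbd6 (-0.66 ± 0.12, adjusted p = 6.01e-04) and Mbd5 (-0.45 ± 0.13, adjusted p = 0.0121), listed for a domain of the methyl-CpG-binding family, fell. Zbtb33, which encodes the zinc finger reader Kaiso, rose (0.34 ± 0.10, adjusted p = 0.0165). In GMP 0 of the 9 passed by limma, with 2 at an unadjusted p under 0.05 (median -0.01). Mbd3 read -0.37 ± 0.13 (adjusted p = 0.0645), Zbtb4 0.34 ± 0.12 (adjusted p = 0.068) and Mbd1 -0.13 ± 0.08 (adjusted p = 0.278).

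A further list held genes of 2-oxoglutarate supply and use together with other steps of the citric acid cycle. Of its 24 tested genes, 6 rose and 0 fell in T2F3 MPP (median 0.15), and 0 rose and 2 fell in T2F3 GMP (median -0.13). The MPP rises were led by fumarate hydratase Fh1 (0.69 ± 0.15, adjusted p = 0.00306) and the succinate dehydrogenase subunits Sdhb (0.52 ± 0.12, adjusted p = 0.004) and Sdhd (0.68 ± 0.19, adjusted p = 0.0127). These enzymes act at later steps of the cycle and do not themselves make or use 2-oxoglutarate. The transaminase Bcat2 fell in GMP (-0.27 ± 0.09, adjusted p = 0.0474), while Idh3a read -0.28 ± 0.10 (adjusted p = 0.0631). The genotype effect was more negative in GMP than in MPP for 23 of the 24, though 0 passed by limma and 8 had an unadjusted p under 0.05 (median -0.25, against -0.01 over all tested genes). Over all tested genes, 51% were below 0 in this test and 19.2% had an unadjusted p under 0.05. Between the populations, 1 of the 24 rose in GMP in T2F3 and 12 in WT, and 0 fell in either. Of all tested genes, 10.5% rose and 11.7% fell in GMP in T2F3, and 25.4% rose and 23.2% fell in WT.

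Of 14 tested genes of the methionine and folate cycles, which supply the methyl donor, 0 rose and 3 fell in T2F3 MPP (median -0.02) and 0 rose and 3 fell in T2F3 GMP (median -0.16). Mthfd1, a folate enzyme, fell in both (-0.59 ± 0.16 in MPP, adjusted p = 0.0105, and -0.65 ± 0.15 in GMP, adjusted p = 0.00844), as did the methionine synthase Mtr (-0.57 ± 0.12, adjusted p = 0.00168, and -0.36 ± 0.11, adjusted p = 0.0412). The mitochondrial folate enzyme Mthfd1l fell in MPP (-0.45 ± 0.13, adjusted p = 0.016) and the serine hydroxymethyltransferase Shmt1 in GMP (-0.38 ± 0.09, adjusted p = 0.0116).

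In S phase genes, 2 of 24 rose and 3 fell in T2F3 MPP (median -0.10) and 0 rose and 1 fell in T2F3 GMP (median -0.15). Of 24 ribosomal protein genes, 21 rose in T2F3 MPP (median 0.78), and 0 passed in T2F3 GMP by limma (median 0.31), with 0 at an unadjusted p under 0.05. These list counts stand beside the same background as above, 40.3% of all tested genes in MPP and 15.3% in GMP.

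**Figure D5:**
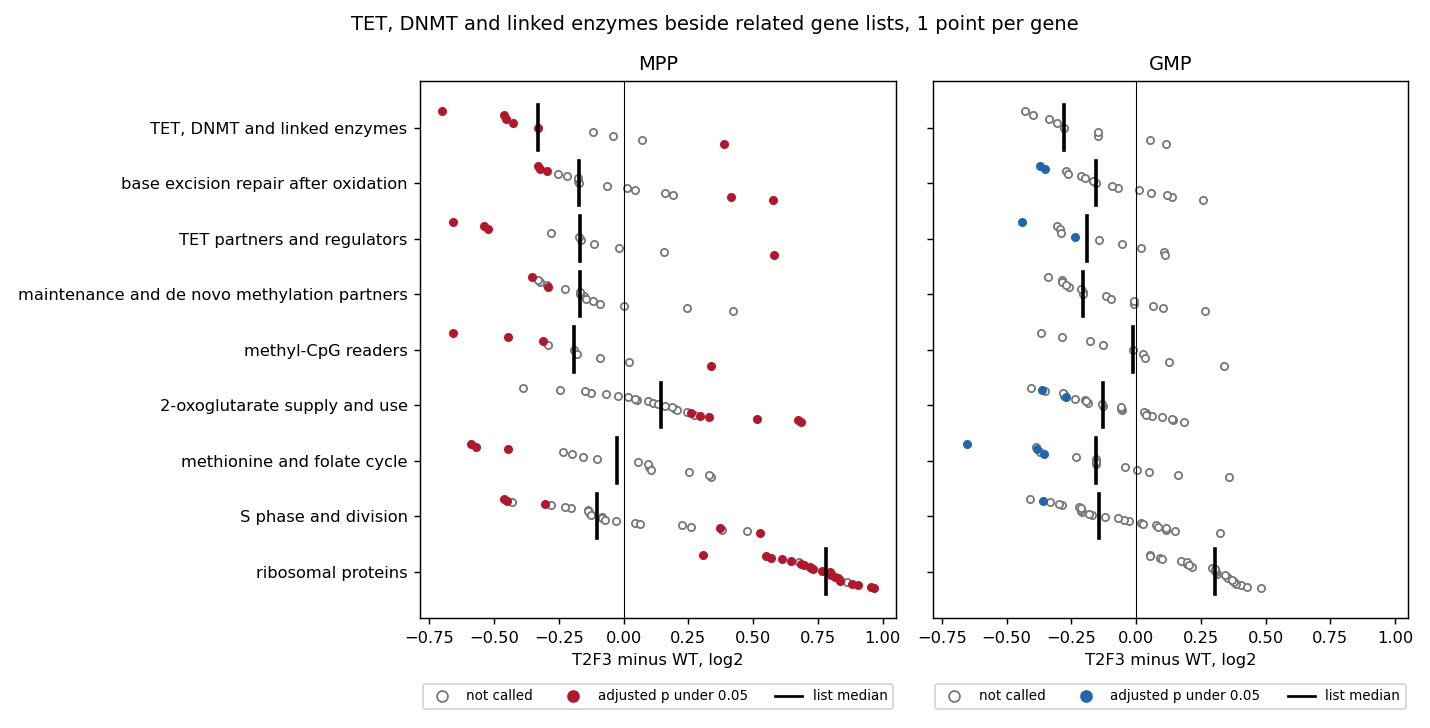
Genotype difference (log2, T2F3 minus WT) of each tested gene by list in MPP and GMP, where filled points passed at an adjusted p under 0.05 and bars are list medians. The ribosomal protein genes lie right of 0 in MPP with a median of 0.78, and the enzymes have a median of -0.33.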

How the data were processed

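Messenger RNA was sequenced from stranded libraries, per the labels' protocols. The log2 values for 24424 Entrez IDs in 15 libraries were used as the authors deposited them, in a table whose name marks them as regularized log values. STAR, Bowtie, HOMER, DESeq2 and the mm9 build appear in the submitters' processing notes with no versions or roles. The regularized log shrinks genes with few reads, so their differences are understated, and read depth is unknown. Symbols came from the RefSeq GRCm38.p6 table (24345 IDs matched).

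Genes with a mean of at least 4 (12133) entered 1 limma model (version 3.58.1, R 4.3.3; eBayes with trend and robust) with 4 group means and 5 contrasts. Tests were two-sided, adjusted by Benjamini-Hochberg over all tested genes, with a threshold of 0.05. The model was run on simulated data whose changes were larger than the genotype differences of the enzymes, with no shift shared within a library. That run therefore does not show how well differences of the size reported are found. Pair differences used exact permutation tests (Python 3.11.15, NumPy 2.4.6), and figures Matplotlib 3.10.9. All 10 enzymes are named. From each pathway list the 3 genes with the smallest p in each genotype contrast are named, and for each enzyme the 3 genes of most similar pattern, leaving out predicted genes and pseudogenes. Some genes that this rule takes are not reported here. The enzymes and the lists were chosen with earlier results of these data known. Alternatives were other filters, median centring, quantile normalization, a model without trend and robust, array weights, only the groups compared, a replicate block, each library left out, and WT GMP 1 and T2F3 GMP 2 left out together. A ribosomal protein covariate was added after the data were seen.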

Additional observations from a re-analysis of the deposited data

Results flagged for a closer look

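The WT values of the 10 enzymes and their pairs formed 32 groups, each examined for a single stray library. Of these 1 stood out, and chance alone flags about 1 group in 20. The T2F3 groups were not examined in this way. Uhrf1 in WT GMP 1 read 11.24 (log2), against 11.64 to 11.81 in the other WT GMP libraries, and its gap to the nearest of them took 0.713 of the group's range. In the same library the ribosomal protein genes averaged 14.11, against 12.94 to 13.28 in the other WT GMP libraries, and whether this bears on the Uhrf1 value was not tested.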

How the results depend on the processing

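In MPP 6 enzymes passed the genotype test, 1 (Tet1) with a replicate block, 1 (Tet1) with the ribosomal protein covariate, and 2 to 6 with each library left out in turn, fewest without T2F3 MPP 2. In GMP 0 passed, 6 with array weights, 1 with WT GMP 1 and T2F3 GMP 2 left out, 2 with the covariate and 0 to 5 with each library left out, most without WT GMP 1. For the difference of genotype effects 0 passed, and 1 (Idh2, -0.51) with the covariate. The cause of these changes was not tested.

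The replicate numbers were not treated as pairing the libraries: GMP and MPP libraries of the same genotype and number had deviations that correlated at 0.055 to 0.464, all above 0 but not all above 0.1, and T2F3 and WT libraries of the same population and number at -0.326 to 0.517. Across the populations 4 of 6 T2F3 and 6 of 8 WT libraries correlated best with their own number. In the genotype tests the replicate block joined all libraries of the same number, across T2F3 and WT. In the steps and the difference of effects it joined only libraries of the same genotype and number. The replicate block moved the count of all genes called in the MPP genotype test to 2732, against 4889 without it. With the block, Tet3, Idh1, Dnmt1, Dnmt3a and Uhrf1 in MPP had adjusted p = 0.0531, 0.0749, 0.109, 0.0909 and 0.117, and the WT step of Idh2 also did not pass (0.30, adjusted p = 0.0545). Called steps of Tet1, Idh1 and Dnmt3b in both genotypes, of Dnmt3a in WT, and Tet1 in MPP passed in all 25 alternatives.

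Signs turned only in differences that did not pass. Dnmt3b in MPP became 0.0056 with the replicate block and 0.18 with the covariate. Tet2 in GMP became -0.11 with array weights and -0.020 with both libraries left out, and ranged from -0.037 to 0.17 with single libraries left out. For the difference of effects, Tet2 became -0.086 and Uhrf1 -0.071 with array weights, and Dnmt1 -0.14 and Uhrf1 -0.19 with the covariate. With single libraries left out, Dnmt1 ranged from -0.019 to 0.25 and Uhrf1 from -0.084 to 0.17. The WT step became 0.030 for Tet3 with the covariate and -0.20 for Dnmt1 with quantile normalization. The T2F3 step of Idh2 became 0.11 with array weights and 0.17 with both libraries left out, and ranged from -0.12 to 0.17 with single libraries left out. Idh2 in MPP ranged from -0.020 to 0.13, and Uhrf1 minus Dnmt1 in MPP from -0.016 to 0.10, with single libraries left out. Uhrf1 minus Dnmt1 in GMP became 0.0092 with quantile normalization.

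Over all genes, the number called in MPP was 7795 with array weights and 2859 and 2892 without T2F3 MPP 2 and 3. In GMP it was 1855, and 4103 with array weights, 1180 with only the groups compared, 1174 without T2F3 GMP 2 and 3759 without WT GMP 1. The difference of effects called 274, and 1494 with array weights, 1204 with both libraries left out, 989 with the covariate, 436 without a filter, 140 with a minimum mean of 6 and 79 to 586 with single libraries left out. The T2F3 step called 2690, and 4389 with array weights and 4228 with the covariate. Read depth is unknown, so no limit from depth can be given, and low genes such as Tdg are shrunk.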
